A study of Mus musculus with 6 samples.

Results

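Scavenger receptors and C-type lectin receptors of the macrophage surface were followed in RAW 264.7 cells, a line of mouse macrophages that derives from a tumour induced by a virus (written RAW 264.4 in part of the labels). The members were the scavenger receptor genes Msr1, Marco, Cd36 and Scarb1, the mannose receptor gene Mrc1 and the C-type lectin genes Clec4d, Clec4e, Clec4n, Clec5a and Clec7a. They were found as every probe whose symbol in the platform's annotation is one of these names, which gave 10 genes and 13 probes among 10698 named genes and 16281 probes. All 13 probes had a value on all 6 arrays. Each two-colour array compared total RNA of cells given lipopolysaccharide (LPS, 100 ng/ml) together with LPS-binding protein (LBP, 100 pM) with total RNA of untreated cells. The labels give 4 h for the treated and for the untreated cells, which for the treated is read here as the time with LPS and LBP. Treated RNA carried Cy5 on 3 arrays and Cy3 on the other 3, and within each dye orientation the labels give the arrays set numbers from 1 to 3. LPS and LBP were always given together, so their parts in a change cannot be told apart. Whether each set had its own cultures is not said, so part or all of the spread between sets may be technical. The p-values of the main test cover only the spread between set averages, not the differences between arrays within a set.

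Scavenger receptors take up modified lipoproteins, lipids, dead cells and microbes. Msr1 (class A scavenger receptor) and Marco are collagen-like receptors for polyanionic ligands and bacteria, Cd36 is a receptor for oxidised lipoprotein and fatty acids, and Scarb1 is the receptor for high-density lipoprotein. C-type lectin receptors recognise sugars or glycolipids, many through a calcium-dependent fold, and several pass the signal to the kinase Syk through an activation motif (ITAM) in an adaptor protein such as the Fc receptor γ chain (Fcer1g) or DAP12 (Tyrobp). Clec4e (Mincle), Clec4d (MCL, Dectin-3) and Clec4n (Dectin-2) bind mycobacterial or fungal glycolipids and mannans, Clec7a (Dectin-1) binds fungal β-glucan and carries its own signalling motif, and Clec5a (MDL-1) works with DAP12.

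Every value is the log2 of treated over untreated RNA, so that 0 is no difference and 1 is a doubling. A gene's change is the mean ± SD of n = 3 set values, each the mean of the 2 arrays of a set after the sign was turned where Cy3 marked the treated RNA. Arrays of opposite orientation correlated between -0.76 and -0.37 across probes before turning, which would be the same under either direction of the ratio. The direction used is the likely one: the labels name the Cy5 RNA the test and the Cy3 RNA the control. Read this way, the known LPS-induced cytokine genes Il1b (4.17 ± 0.055), Il6 (2.81 ± 0.46) and Tnf (2.08 ± 0.18) lay above 0, and a reversed convention would turn these and every sign that follows. A gene was called where limma gave a Benjamini-Hochberg adjusted p below 0.05 over all 11364 features tested. The table holds ratios and no intensities, so no level of a receptor or of a macrophage marker can be read from it, and how far dim spots compress a ratio is unknown. The number of arrays limits the precision. In bulk RNA, a change in the share of cells that express a gene and a change in RNA per cell cannot be told apart.

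After LPS and LBP, RNA of the lectin receptor genes Clec4e, Clec4d, Clec7a and Clec4n and of the scavenger receptor gene Msr1 was higher, RNA of the lipoprotein receptor gene Scarb1 was lower, and Marco, Cd36, Mrc1 and the probe average of Clec5a were not called. Of the 10 receptor genes, 5 were thus called higher and 1 lower, while 14% of all features were called higher and 15% lower. The members were chosen with earlier results of these data known, so these shares are no independent test of the group. The median over the 10 genes was 0.17, and over all features it was 0.00079. Clec4e had the largest rise, at 1.94 ± 0.10 or 3.83-fold, and exceeded 99.3% of all features. Clec4d (0.99 ± 0.028), Msr1 (0.75 ± 0.18) and Clec7a (0.74 ± 0.37) followed, each above at least 97.3% of features. Clec4n (0.23 ± 0.13) and Scarb1 (-0.22 ± 0.0051) were called with smaller sizes, and 80.7% and 80.4% of all features had a smaller absolute change.

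**Figure D1:**
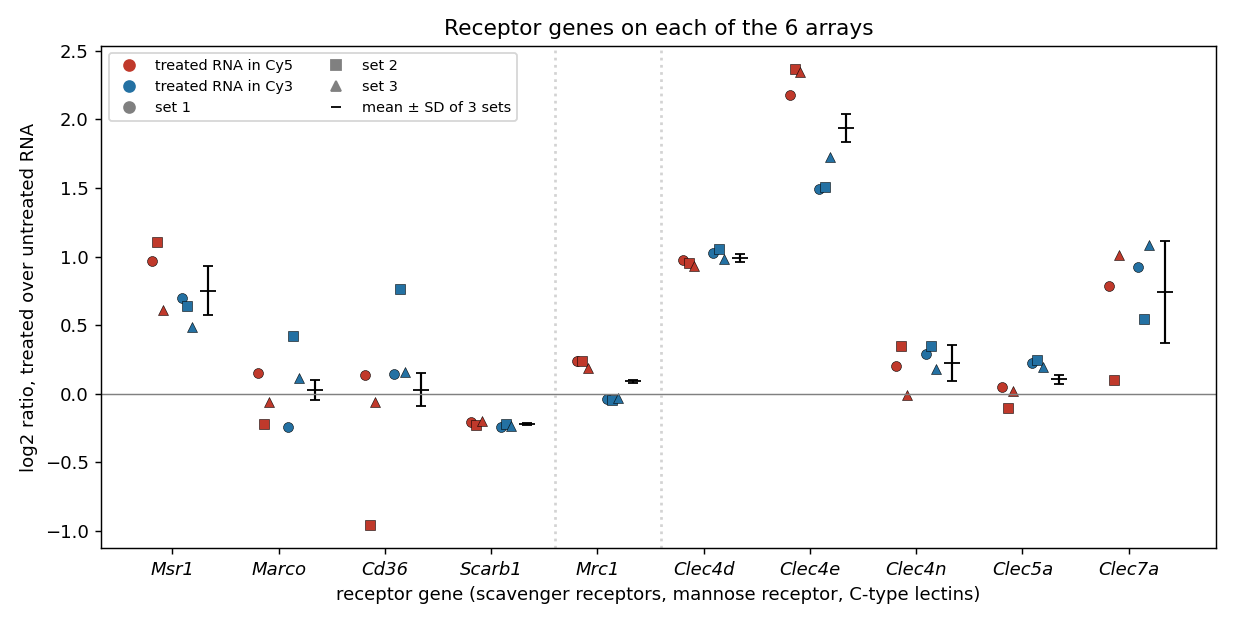
Log2 ratio of treated over untreated RNA for each receptor gene on each of the 6 arrays. Colour gives the dye of the treated RNA, symbol the set, and the black bar the mean ± SD of the 3 set values; probes of 1 gene were averaged. Clec4e lies above every other gene on all arrays, Clec4d is nearly constant between 0.93 and 1.06, and Cd36 spreads from -0.96 to 0.76 around a mean near 0.

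**Figure D2:**
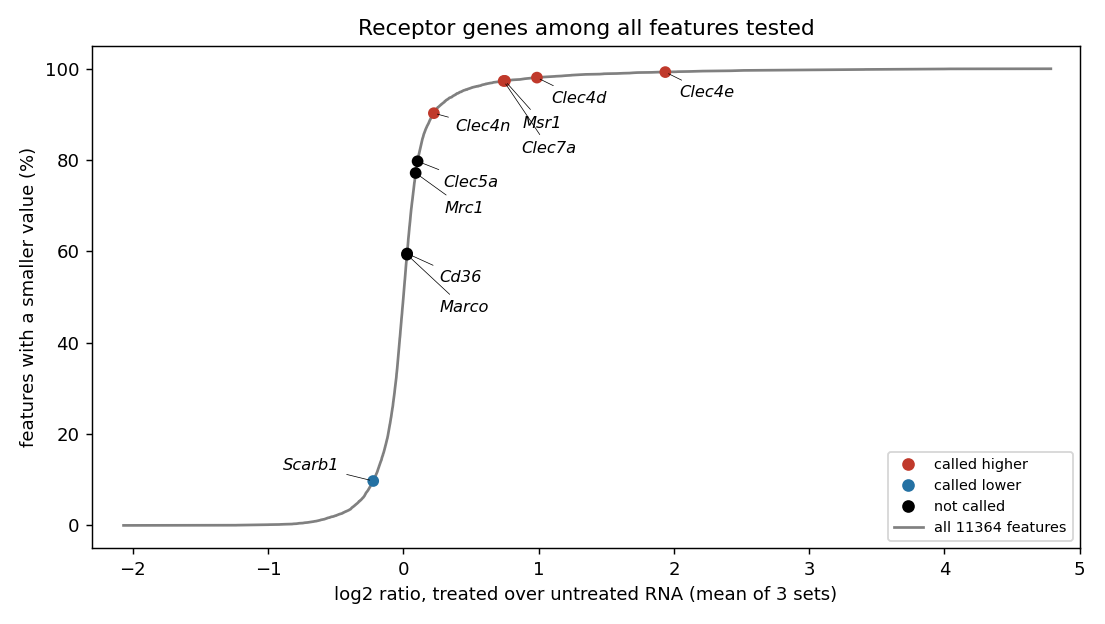
Cumulative distribution of the mean log2 ratio over the 11364 features (grey line), with the 10 receptor genes as points coloured by call. Clec4e exceeds 99.3% of features, Clec4d, Msr1 and Clec7a lie above 97% of them, and Cd36 and Marco lie near the middle.

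Clec4n, Clec4d and Clec4e encode FcRγ-coupled receptors of a lectin cluster and follow each other in that order on mouse chromosome 6, with no annotated gene between them in the RefSeq gene table of GRCm38.p6. Their changes increased in that order. For Clec4e, which recognises mycobacterial cord factor, the log2 ratios were 2.18, 2.37 and 2.35 in sets 1 to 3 with treated RNA in Cy5 and 1.49, 1.51 and 1.73 with treated RNA in Cy3. All 6 arrays were above 0, and those with treated RNA in Cy5 were all higher than those with it in Cy3. The change was 1.94 ± 0.10 (limma adjusted p = 3.36e-07).

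For Clec4d, which forms a receptor complex with Clec4e, the arrays gave 0.97, 0.96 and 0.93 with treated RNA in Cy5 and 1.03, 1.06 and 0.98 with it in Cy3. These values lay within a narrow band in both orientations, and the change of 0.99 ± 0.028 (limma adjusted p = 3.45e-06) is a 1.98-fold rise. For Clec4n, a receptor for fungal mannans, they were 0.20, 0.34 and -0.0085 with treated RNA in Cy5 and 0.29, 0.35 and 0.18 with it in Cy3. It was higher on 5 of 6 arrays, and its change of 0.23 ± 0.13 passed with limma adjusted p = 0.0217. That call ended without set 2 (0.17, adjusted p = 0.0787) and on the arrays with treated RNA in Cy5 alone (0.18, adjusted p = 0.215).

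Within the cluster the steps between genes were larger than the spread between sets. Clec4e exceeded Clec4d by 0.95 ± 0.12, and its lowest array (1.49) was above the highest of Clec4d (1.06). Clec4d in turn exceeded Clec4n by 0.76 ± 0.10, with a lowest array of 0.93 against a highest of 0.35. The gene table lists 9 protein-coding genes from Clec4a1 to Clec4e, of which 4 were measured on all arrays. The fourth, Clec4a2, an inhibitory receptor gene named here for its position, was at -0.19 ± 0.13 (limma adjusted p = 0.0413). Its value was above 0 on 2 of 6 arrays, and the call ended with either set 1 or set 2 left out (adjusted p = 0.0691 and 0.227) and with scale normalization between arrays (adjusted p = 0.0521). The lectin genes of this cluster are related in sequence, and binding of a probe to a relative's transcript was not tested.

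Start-site sequences are shown for Clec4d, Clec4e and Clec7a, the lectin genes with the 3 largest rises, to put the letters around the starts of these genes beside their changes. Each is a RefSeq window of GRCm38.p6 that runs from 250 bases before to 50 after the annotated gene start, written 5′ to 3′ on the gene's strand: chr6:123261857-123262156 on the + strand, chr6:123289822-123290121 on the - strand and chr6:129472730-129473029 on the - strand, the last being 1 of 2 windows of that gene. Capitals mark matches, on either strand, to GAGGAA (the core bound by the macrophage factor PU.1), TTNNGNAA (a loose C/EBP pattern), GGGANTT (an NF-κB half-site), GAAANNGA (part of the interferon-response element), TGANTCA (AP-1) or TATAAA.
Clec4d: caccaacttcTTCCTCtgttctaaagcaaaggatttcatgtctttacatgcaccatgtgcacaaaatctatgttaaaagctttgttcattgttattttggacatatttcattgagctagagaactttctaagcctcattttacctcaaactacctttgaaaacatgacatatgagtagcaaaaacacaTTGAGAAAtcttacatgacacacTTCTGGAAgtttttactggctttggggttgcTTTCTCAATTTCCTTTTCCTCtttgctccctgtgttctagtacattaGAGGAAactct
Clec4e: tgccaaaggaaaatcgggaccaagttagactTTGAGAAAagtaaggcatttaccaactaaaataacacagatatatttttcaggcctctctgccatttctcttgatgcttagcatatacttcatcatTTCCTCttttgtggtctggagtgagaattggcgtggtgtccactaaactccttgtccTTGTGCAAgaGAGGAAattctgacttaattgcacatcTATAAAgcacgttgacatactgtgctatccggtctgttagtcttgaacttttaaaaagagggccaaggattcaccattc
Clec7a: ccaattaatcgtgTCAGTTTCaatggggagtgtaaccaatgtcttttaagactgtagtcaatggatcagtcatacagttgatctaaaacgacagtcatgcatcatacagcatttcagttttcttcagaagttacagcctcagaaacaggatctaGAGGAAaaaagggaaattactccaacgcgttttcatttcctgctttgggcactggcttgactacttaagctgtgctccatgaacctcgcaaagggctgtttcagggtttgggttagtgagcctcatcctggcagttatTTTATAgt

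The Clec4d window held GAGGAA 3 times, TTNNGNAA 3 times and GAAANNGA 2 times, and the last of these overlapped matches of the other patterns near the gene start. The Clec4e window held GAGGAA 2 times, TTNNGNAA 2 times and a TATAAA at bases 222 to 227. The Clec7a window held 1 match each of GAGGAA, GAAANNGA and TATAAA. Its TATAAA match was on the opposite strand at bases 293 to 298, after the annotated start, and the gene's other window held none. Windows were at hand for 7 of the 10 genes (Marco, Cd36, Mrc1, Clec4d, Clec4e, Clec5a and Clec7a), while Msr1, Scarb1 and Clec4n had none. Among the 7, GAGGAA occurred in 6 and TTNNGNAA in 6, and of all 32851 windows of 300 bases 28.3% and 40.7% held them. GAAANNGA occurred in 4, those of Cd36, Mrc1, Clec4d and Clec7a, against 21% of all windows. TATAAA occurred in 3, those of Clec4e, Clec5a (bases 42 to 47) and Clec7a, against 13.6% of all windows. GGGANTT occurred in 2, those of Marco and Clec5a (16.5%), and TGANTCA in 0 of 7 (7.81%). These matches describe letters, and no binding was measured. The 3 printed windows were 36% (Clec4d), 40% (Clec4e) and 42% (Clec7a) G and C, against a median of 52.7% over all windows.

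Clec7a, the β-glucan receptor gene, rose by 0.74 ± 0.37 (limma adjusted p = 0.0031) with the widest spread between sets of the 10 genes. Its probe average was 0.78, 0.10 and 1.01 in sets 1 to 3 with treated RNA in Cy5 and 0.92, 0.55 and 1.08 with it in Cy3. All 6 arrays were above 0, and set 2 was the lowest in both orientations. Probe 13091 gave 0.67 ± 0.39 and probe 15285 gave 0.81 ± 0.36, and both were called (limma adjusted p = 0.00536 and 0.00146 among single probes). Probe 15285 was at -0.14 on the set 2 array with treated RNA in Cy5, against 0.95 on the other array of that set, whereas probe 13091 was at 0.35 and 0.14 there. Without set 2 the gene was at 0.95, and on the arrays with treated RNA in Cy5 alone it was not called, at 0.63 (adjusted p = 0.0826).

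The probes of Clec5a, the DAP12-coupled receptor gene, went in opposite directions. Probe 17639 gave 0.30, 0.30 and 0.22 with treated RNA in Cy5 and 0.44, 0.57 and 0.47 with it in Cy3, and rose by 0.38 ± 0.045 (limma adjusted p = 5.84e-04 among single probes). Probe 13770 gave -0.21, -0.51 and -0.18 with treated RNA in Cy5 and 0.011, -0.072 and -0.076 with it in Cy3, and fell to -0.17 ± 0.10 (limma adjusted p = 0.0487). Probe 17639 was the higher of the pair on 6 of 6 arrays, by 0.55 ± 0.15. Their average, 0.11 ± 0.032, was not called (adjusted p = 0.11), so the gene's direction depends on the probe. Of the 1866 genes with several measured probes, 20 had probes called in opposite directions, or 1.07%. The annotation gives both probes the symbol Clec5a, and which transcripts each binds was not tested.

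**Figure D3:**
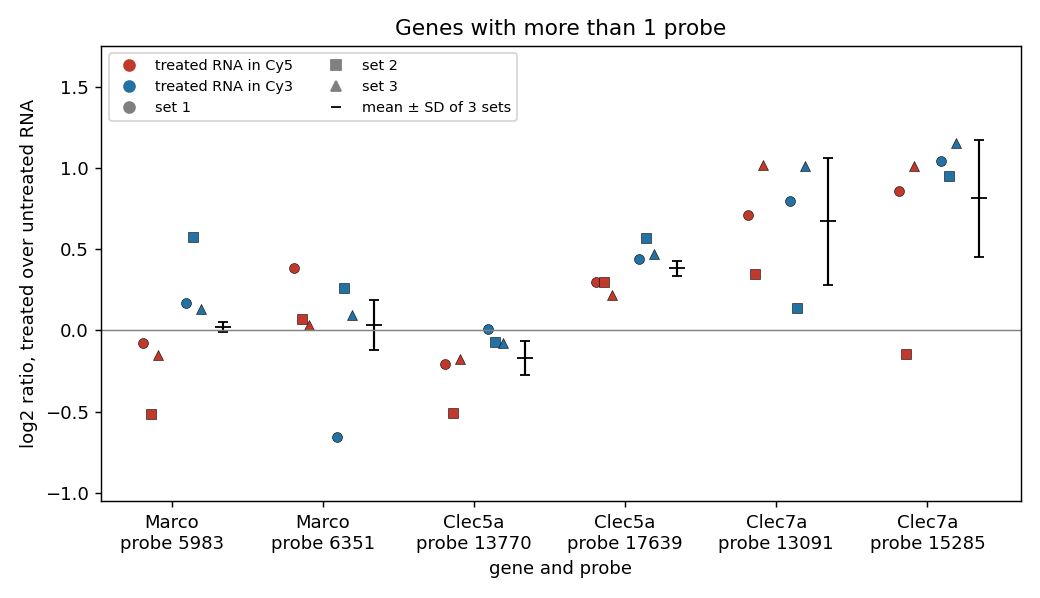
Log2 ratio of treated over untreated RNA on each array for the probes of Marco, Clec5a and Clec7a, with the mean ± SD of the 3 sets in black. The Clec5a probes separate on all arrays (means of -0.17 and 0.38), both Clec7a probes are low in set 2 apart from 1 array of probe 15285, and the Marco probes scatter around 0.

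Counted by probe, 7 of the 13 probes were called higher, 2 lower and 4 not, while 14.1% of all 13415 single probes were called higher and 14.6% lower. The 4 uncalled probes belonged to Marco, Cd36 and Mrc1.

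Of the scavenger receptor genes, Msr1 was the only one of the 4 called higher. Its log2 ratios were 0.97, 1.11 and 0.61 with treated RNA in Cy5 and 0.70, 0.64 and 0.49 with it in Cy3. All 6 arrays were above 0, and set 3 was the lowest in each orientation. The change was 0.75 ± 0.18, or 1.68-fold (limma adjusted p = 1.62e-04).

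Scarb1, the high-density lipoprotein receptor gene, had the most even values of the 10. They were -0.21, -0.23 and -0.20 with treated RNA in Cy5 and -0.24, -0.22 and -0.24 with it in Cy3. It was below 0 on all 6 arrays, and fell to -0.22 ± 0.0051 (limma adjusted p = 0.00551), a 1.17-fold drop. On the arrays with treated RNA in Cy5 alone the value was -0.21 and missed the threshold (adjusted p = 0.0741).

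Cd36, the fatty acid and oxidised lipoprotein receptor gene, was at 0.028 ± 0.12 and was not called (limma adjusted p = 0.759). Its arrays read 0.13, -0.96 and -0.064 with treated RNA in Cy5 and 0.14, 0.76 and 0.16 with it in Cy3. The set 2 arrays stood apart from the other 4 in opposite directions, so that they nearly cancelled in the set mean of -0.10. Without set 2 the change was 0.092, which was not called either.

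Marco, a receptor for bacteria, was at 0.027 ± 0.072 and was not called (limma adjusted p = 0.721), with 3 arrays above 0 and 3 below. Probe 5983 averaged 0.022 ± 0.029 and probe 6351 0.032 ± 0.15. On probe 5983 the set 2 arrays were the outermost, at -0.51 with treated RNA in Cy5 and 0.58 with it in Cy3, and on probe 6351 those of set 1 were, at 0.38 and -0.65. The direction of neither Cd36 nor Marco is settled by these arrays, whose set means had both signs.

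Mrc1, the mannose receptor gene, was at 0.091 ± 0.011 and was not called (limma adjusted p = 0.152). It was at 0.24, 0.24 and 0.19 with treated RNA in Cy5 but at -0.041, -0.047 and -0.031 with it in Cy3. The orientations did not overlap and had opposite signs, while the set means agreed closely, so the small SD between sets does not carry the difference between orientations.

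Placed in order of change, the 10 genes ran Clec4e, Clec4d, Msr1, Clec7a, Clec4n, Clec5a, Mrc1, Cd36, Marco and Scarb1. The step from Clec4e to Clec4d was the only one between neighbours whose arrays did not overlap. Clec4d exceeded Msr1 by 0.24 ± 0.15 and Marco exceeded Scarb1 by 0.25 ± 0.073, each in all 3 sets and by more than the SD of the difference between sets. Clec7a exceeded Clec4n by 0.52 ± 0.50 but in 2 of 3 sets only, since in set 2 Clec4n was at 0.35 and Clec7a at 0.32. Msr1 and Clec7a differed by 0.0096 ± 0.53, and the 4 steps from Clec4n to Marco were likewise smaller than their SD. These compare changes, not levels, and a probe's own compression enters each.

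Genes of the adaptors and kinases through which the lectins signal were counted next. Of 15 measured genes of ITAM and Syk signalling, 6 were called higher and 3 lower (40% and 20%, against 14% and 15% over all features), with a median of 0.12. On the arrays with treated RNA in Cy5 alone these were 3 higher and 0 lower. Over all 11364 features 931 were called higher and 894 lower on those arrays, against 1586 and 1708 in the main fit. Fcer1g, the adaptor of Clec4e, Clec4d and Clec4n, rose by 0.31 ± 0.031, or 1.24-fold (limma adjusted p = 0.00134), whereas Tyrobp, the adaptor of Clec5a, was at -0.019 ± 0.041 (adjusted p = 0.796) and Syk at 0.12 ± 0.16 (adjusted p = 0.223). Bcl10 (0.43 ± 0.040) and Prkcd (0.36 ± 0.033), which act between Syk and NF-κB, rose, and the exchange factor gene Vav3 fell to -0.38 ± 0.13. The Src-family kinase gene Fgr, named after its values were seen, was listed at exactly 0 on 2 arrays and read between 1.33 and 1.88 on the other 4, with no test. The signalling genes Src, Ptpn6 and Zap70 were also measured on part of the arrays only, and had values of both signs. Src read between -0.18 and 0.62 on 5 arrays, Ptpn6 between -0.65 and 1.41 on 3, and Zap70 between -0.36 and 0.27 on 5. Card9, the partner of Bcl10, was not analysed here.

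Receptors of the same kinds outside the 10 were counted the same way. Of 13 other scavenger receptor genes 3 were called higher and 1 lower (23.1% and 7.69%, median 0.032), against 14% and 15% over all features. Of 17 other C-type lectin genes 1 was called higher and 2 lower (median -0.010), which are 5.88% and 11.8% and so no more than those shares. Cxcl16, which is both a chemokine and a scavenger receptor, rose by 1.21 ± 0.037 and Lgals3bp, a secreted scavenger-domain protein gene, by 0.99 ± 0.22, while the lysosomal Cd68 (0.090 ± 0.047) and the oxidised lipoprotein receptor gene Olr1 (0.032 ± 0.096) were not called. Olr1 was called on the arrays with treated RNA in Cy3 alone (0.24, limma adjusted p = 0.0432), and the list had no lower call without set 1 or without set 3. Among the lectins, Cd302 rose by 0.33 ± 0.15 and the galactose-binding Clec10a was at -0.18 ± 0.12, called at limma adjusted p = 0.0457 but not without set 1 (adjusted p = 0.18) or set 3 (adjusted p = 0.176).

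Transcription factor genes listed as regulators of macrophage lipid and receptor genes had 4 calls higher and 4 lower among 12. That is 33.3% each, against 14% and 15% over all features. With any 1 of the 3 sets left out, 2 were called lower. Lower calls over all features went from 1708 to 1347, 1464 and 1411 without set 1, 2 and 3. Spi1, which encodes PU.1, rose by 0.50 ± 0.15, Ets2 by 0.82 ± 0.18 and Mitf by 0.63 ± 0.19. Pparg, a known activator of Cd36, was at -0.19 ± 0.13 (limma adjusted p = 0.044), a call that ended without set 1 (adjusted p = 0.17) or set 2 (adjusted p = 0.119) and after scale or quantile normalization (adjusted p = 0.0683 and 0.0577). Nr1h3, the lipid sensor LXRα, was at 0.13 ± 0.12 and was not called (limma adjusted p = 0.114), but it was without set 2 (0.20, adjusted p = 0.025) and on the arrays with treated RNA in Cy3 alone (0.33, adjusted p = 0.0392).

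Lipid-handling genes counted 6 higher and 3 lower of 16 (37.5% and 18.8%, against 14% and 15% over all features). The largest change of the list was that of Fabp4 (1.16 ± 0.12), whose probes gave 2.20, called, and 0.11, not called. Fabp5 was at -0.57 ± 0.090, Cyp27a1, a sterol hydroxylase gene, at -0.56 ± 0.10, and Npc2 at 0.43 ± 0.053. The cholesterol exporter gene Abca1 was at 0.41 ± 0.30 (limma adjusted p = 0.0186). The Abca1 call ended over the 6 separate arrays both without a set block (limma adjusted p = 0.0711) and with a fixed one (adjusted p = 0.117). The list's higher calls numbered 3 with that fixed block and 2 on the arrays with treated RNA in Cy5 alone. Over all 11364 features, higher calls numbered 1201 with that block and 931 on those arrays, against 1586 in the main fit. Phagocytosis genes counted 5 higher and 3 lower of 18 (27.8% and 16.7%, against the same shares), and the dead-cell receptor gene Axl rose by 1.70 ± 0.49.

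**Figure D4:**
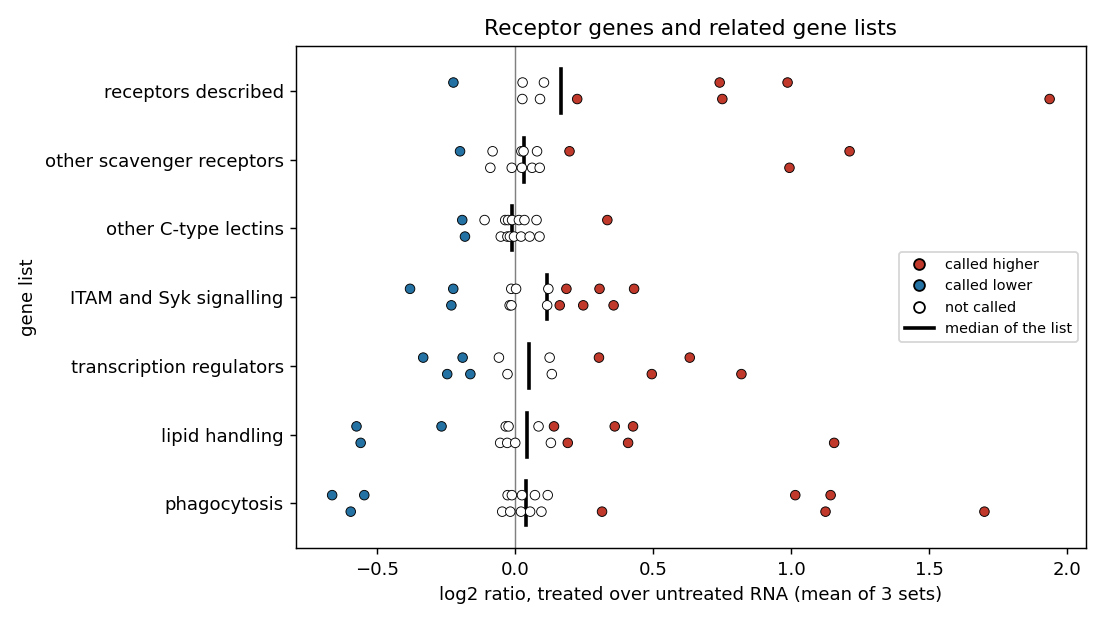
Mean log2 ratio of treated over untreated RNA for the 10 receptor genes and for the measured genes of 6 related lists, 1 point per gene, filled red where called higher, blue where called lower and white where not called, with the median of each list as a bar. The receptor genes have the highest median of the lists shown (0.17), with Clec4e at the far right, and the other C-type lectins cluster near 0. Members and lists were chosen with earlier results of these data known.

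Of 7 macrophage marker genes measured, 3 were called higher and 2 lower (42.9% and 28.6%), with changes from -0.59 to 1.10. Of 32 measured markers of 6 other cell types, 3 were called higher and 0 lower in the limma fit. Over all features 14% were called higher and 15% lower. As ratios these give no level, and their part in the receptor changes was not tested.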

How the data were processed

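Each of 6 two-colour arrays compared treated with untreated RNA. As deposited, a value is the log2 ratio of an array's channels at 1 probe, and each array's median is 0. The base was taken from the maximum, which is the log2 of a 100-fold ratio. The scanner, background correction, normalization and genome build are not given in the sources used here. Exact zeros (1254 to 2086 per array) were taken as not measured, which left 13415 probes measured throughout. Symbols came from the platform annotation (13738 probes with 1 symbol, 52 with several, 2491 with none listed). By Entrez ID, 13694 matched RefSeq's GRCm38.p6 table and 44 did not. Probes of 1 gene were averaged, which gave 11364 features (9574 named genes). Set means of both orientations, taken as 1 replicate by assumption, were tested against 0 with limma 3.58.1 in R 4.3.3 (two-sided, Benjamini-Hochberg over all features, threshold 0.05). Unturned set means gave the dye effect. On simulated data of 11364 features, limma recovered 99.4% of 1.5-fold changes, and 5.34% of calls were false. The smallest fold simulated was 1.5, above the 1.17-fold changes of Clec4n and Scarb1. These percentages describe the simulated data and give no rate of false calls for the real arrays.

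The members and gene lists were chosen with earlier results of these data known. Named genes are all members and, per related list, at most 4 called and 2 uncalled genes with the largest absolute change; Fcer1g, Tyrobp, Syk, Card9, Pparg, Nr1h3, Abca1, Cd68, Cxcl16, Olr1, Tnf, Il1b and Il6 entered by name. Alternatives covered array centring, quantile or scale normalization, no, fixed or random blocks for sets, each orientation alone, each set left out, exact zeros kept, missing sets, median or single probes, filters, robust variances and a stricter threshold.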

Additional observations from a re-analysis of the deposited data

Results flagged for a closer look

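The 2 dye orientations stood apart for Mrc1 and for Clec4e. For Mrc1 all arrays with treated RNA in Cy5 lay above 0 (mean 0.22 ± 0.029, n = 3) and all with it in Cy3 below 0 (-0.040 ± 0.0083). The dye effect, the mean of the unturned values, was 0.13 ± 0.019 and was not called when tested over sets (limma adjusted p = 0.17). For Clec4e the dye effect was 0.36 ± 0.062, with 2.30 ± 0.10 on the arrays with treated RNA in Cy5 and 1.58 ± 0.13 with it in Cy3. It was not called over sets (limma adjusted p = 0.166), but it passed in a limma fit of 6 separate arrays (adjusted p = 0.029), a version chosen after seeing the data. Over all 11364 features limma called 0 dye effects over sets, with 2630 at an unadjusted p below 0.05, and 554 (4.88%) in that fit of separate arrays.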

How the results depend on the processing

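The members were set against 17 to 20 alternatives each, 181 comparisons over the 10 genes, of which 164 kept direction and side of the threshold. Marco, Cd36, Mrc1, Clec4n and Clec5a gave no value where genes needed the same sign in both orientations of every set, and single probes apply to Marco, Clec5a and Clec7a. Clec4e, Clec4d and Msr1 kept theirs in all of those run. On the arrays with treated RNA in Cy5 alone, Scarb1 (-0.21), Clec4n (0.18) and Clec7a (0.63) were no longer called, Marco (-0.042), Cd36 (-0.30) and Clec5a (-0.013) changed sign uncalled, and 3 members were called higher and 0 lower. With treated RNA in Cy3 alone, Clec5a was called at 0.22 and Mrc1 was at -0.040, uncalled. With exact zeros kept, Mrc1 was called at 0.091, and Clec4n (0.23) and Clec7a (0.74) were not (adjusted p = 0.134 and 0.106). At an adjusted p below 0.01, Clec4n (0.23) was not called. By single probes, Clec5a was at -0.17 (probe 13770) and 0.38 (probe 17639). With each set left out in turn, the changes ran from 1.89 to 1.99 for Clec4e, 0.59 to 0.95 for Clec7a, 0.17 to 0.30 for Clec4n, -0.027 to 0.092 for Cd36 and -0.0088 to 0.064 for Marco. The dye effect of Marco ran from -0.20 to 0.055. Over all related lists 25 genes were called higher and 16 lower. These were 14 and 10 on the arrays with treated RNA in Cy5 alone, 22 to 23 and 10 to 13 with a set left out, and 8 lower with zeros kept or 9 at the stricter threshold. By list, higher calls in lipid handling were 6 and became 3 with a fixed set block, with zeros kept or at the stricter threshold, and 2 on the Cy5 arrays alone, where ITAM and Syk genes went from 6 to 3, regulators from 4 to 2 and other C-type lectins from 1 to 0 (0 also with zeros kept). Lower calls among regulators were 4, and 2 with any set left out or zeros kept and 1 on the Cy3 arrays alone or at the stricter threshold. Those of ITAM and Syk genes were 3, and 0 on the Cy5 arrays alone and 1 on the Cy3 arrays alone or with zeros kept. The 2 lower calls of other C-type lectins became 0 or 1 under 13 alternatives, and the 1 of other scavenger receptors became 0 under 6. Of the named list genes, uncalled sign changes were seen on the Cy5 arrays alone for Olr1 (-0.17), Tyrobp (0.11), Nr1h3 (-0.064) and Abcg1 (-0.026), on the Cy3 arrays alone for Clec4a2 (0.0038), Clec1b (-0.20) and C1qc (-0.00398), and for Fabp5 with zeros kept (0.012). With a set left out, Olr1 ran from -4.0e-05 to 0.087. The cause of these changes was not tested.

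Deviations of same-numbered arrays from their orientation's mean correlated at 0.48, 0.51 and 0.020 in sets 1 to 3 as deposited, so in sets 1 and 2 the arrays deviated together in the direction of the dyes. After turning, in the direction of the treatment, the same values are -0.48, -0.51 and -0.020, and 0 of 6 arrays correlated best with their own number. Set means partly cancel opposed deviations, so SDs and p may be too low. With the set number as a fixed replicate block over 6 arrays, 1201 features were called higher and 1237 lower, against 1586 and 1708, and 1554 and 1593 with no block. No member's call changed. No depth or intensity is in the table, so what dim signal limits cannot be stated.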
